A study of Mus musculus with 12 samples.

Results

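The CCAAT/enhancer-binding proteins (C/EBPs) are a small family of transcription factors, and 5 of their genes, *Cebpa*, *Cebpb*, *Cebpd*, *Cebpe* and *Cebpg*, were followed here in mouse neutrophils and macrophages exposed to the neuropeptide CGRP. They were taken by gene name from both count tables, so that all 5 were found among the 52636 genes listed in each.

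RNA was sequenced from 12 libraries in 4 groups of 3. Neutrophils enriched from the bone marrow of C57BL/6J mice aged 8 to 12 weeks were kept in RPMI for 4 h with 1 nM CGRP or with PBS, the saline control. Monocytes enriched from the same tissue were first grown for 3 days with 10 ng/ml M-CSF in DMEM/F12 and then received 1 nM CGRP or PBS for 4 h. The labels call these cells monocyte/macrophage, and they are called macrophages below. No allele or transgene was involved, and the sources used here do not say whether the 3 libraries of a group came from separate mice, so that p-values measure the spread between these libraries, which may be technical. Totals were 2719556 to 3631989 counts in PBS neutrophils, 2196558 to 3270388 in CGRP-treated neutrophils, 2536415 to 3477069 in PBS macrophages and 2002559 to 3259073 in CGRP-treated macrophages. In each group, replicate 3 was the shallowest library.

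C/EBP proteins bind DNA as dimers through a basic region and a leucine zipper, and members can pair with each other and with some other zipper proteins. In the bone marrow, C/EBPα starts granulocyte and monocyte commitment, C/EBPε drives the last steps of neutrophil maturation and the genes of secondary granules, and C/EBPβ and C/EBPδ are induced by inflammatory and cAMP signals in mature myeloid cells. C/EBPγ has no strong activation domain of its own and acts mostly as a partner of the others. CGRP acts through a receptor that raises cAMP, and *Cebpb* is a textbook target of CREB, the factor that cAMP activates and that binds TGACG.

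The members lie at separate places in GRCm38, apart from one pair. *Cebpb* (ENSMUSG00000056501, chr2:167688915-167690418, plus strand), *Cebpa* (ENSMUSG00000034957, chr7:35119293-35121928, plus strand) and *Cebpd* (ENSMUSG00000071637, chr16:15887286-15891031, plus strand) each consist of 1 exon. *Cebpe* (ENSMUSG00000052435, chr14:54710360-54712174, minus strand) has 2 exons, and *Cebpg* (ENSMUSG00000056216, chr7:35046422-35056573, minus strand) lies 62719 bases from *Cebpa* on the same chromosome. On the opposite strand, 312 exonic bases of *Cebpb* are shared with *Tmem189* and 562 exonic bases of *Cebpd* with *Spidr*. The strand setting of the counting is not given in the sources used here, so reads from those stretches may be uncertain.

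The 250 bases before the start of *Cebpb* and of *Cebpa* are shown because the first gene rose with CGRP in both cell types and the second passed the test in neither. The sequences are from RefSeq (GRCm38.p6), on the plus strand, at chr2:167688665-167688914 and chr7:35119043-35119292. Capitals mark each TGACG, or CGTCA where the short site lies on the other strand.
Cebpb: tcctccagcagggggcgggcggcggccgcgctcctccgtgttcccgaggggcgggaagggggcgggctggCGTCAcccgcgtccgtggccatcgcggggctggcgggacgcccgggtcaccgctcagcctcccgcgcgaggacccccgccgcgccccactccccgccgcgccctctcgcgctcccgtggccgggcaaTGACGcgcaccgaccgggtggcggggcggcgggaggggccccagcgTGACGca
Cebpa: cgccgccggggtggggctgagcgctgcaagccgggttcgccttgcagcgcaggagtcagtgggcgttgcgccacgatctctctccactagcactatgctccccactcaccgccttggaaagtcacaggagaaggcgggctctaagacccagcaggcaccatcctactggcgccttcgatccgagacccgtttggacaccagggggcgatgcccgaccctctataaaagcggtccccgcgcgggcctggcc
The *Cebpb* window holds 3 short sites, whose first bases as printed lie 7, 53 and 180 bases before the start. The third of these is the one on the reverse strand. Of 32817 promoter windows of the same length, 17.7% hold at least 1 TGACG on either strand and 0.689% hold 3 or more. The *Cebpa* and *Cebpg* windows hold none, and those of *Cebpd* and *Cebpe* were not analysed here. The full site TGACGTCA, which contains the short site on both strands, is in 1.55% of windows, the palindrome TTGCGCAA that C/EBP dimers bind is in 0.165%, and neither is in the 3 windows. A match of letters is a description only.

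The cell types were checked by their markers before the family was read. Summed over 9 neutrophil markers, the level was 193500 ± 37280 CPM (counts scaled to library size by TMM over the 12 libraries, SD, n = 3) in PBS neutrophils and 304 ± 51.7 in PBS macrophages. Summed over 10 monocyte and macrophage markers, it was 1057 ± 10.5 in PBS neutrophils and 9507 ± 204 in PBS macrophages. Of these markers, *Ccr2* (312 and 288 CPM in neutrophils and macrophages, each scaled within its cell type) and *Cx3cr1* (88.1 and 65.0) were not higher in macrophages. The others were. *Ccr2* was the most abundant marker of this list in each PBS neutrophil library. The most abundant neutrophil markers, *S100a8* and *Ngp*, were at 0.213% and 0.0799% of the neutrophil level in PBS macrophages. Marker genes of other cell types were also counted in the neutrophil libraries, and the source of their RNA was not tested. Erythroid and platelet markers summed to 6264 ± 773 CPM in PBS neutrophils against 783 ± 187 in PBS macrophages. These sums hold different genes, since the most abundant in neutrophils was *Hbb-bs*, a β-globin (3765 and 11.8 CPM in neutrophils and macrophages, each scaled within its cell type), and in macrophages *Pf4*, platelet factor 4, which was higher there (140 and 770 CPM). Basophil and mast cell markers summed to 1103 ± 114 against 14.2 ± 1.05. Eosinophil markers summed to 643 ± 46.6 against 11.4 ± 1.44, and B and T cell markers to 96.9 ± 9.74 against 31.9 ± 0.699. In PBS macrophages the B and T cell markers *Cd79a*, *Ms4a1*, *Cd3d*, *Cd3e* and *Cd3g* were all at 0. The whole B and T cell sum there was *Cd79b*. With CGRP, *Ccr2* in neutrophils and *Ccr2* and *Cx3cr1* in macrophages were the only genes of the 6 marker lists to pass, all of them lower.

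Without CGRP, the family looked different in the 2 cell types. Levels between genes are compared as CPM per kilobase of exon. In PBS neutrophils the order was *Cebpe* (273 ± 19.9, SD, n = 3), *Cebpb* (76.3 ± 13.9), *Cebpd* (29.1 ± 0.665), *Cebpg* (8.00 ± 0.508) and *Cebpa* (7.65 ± 3.33). The libraries of neighbours did not overlap, except for those of *Cebpg* and *Cebpa*. In PBS macrophages the order was *Cebpb* (58.6), *Cebpa* (20.9), *Cebpg* (8.04), *Cebpd* (2.47) and *Cebpe* (0.566), with no overlap between neighbours on this scale. The libraries were primed at the poly-A tail, so that counts need not grow with transcript length, and a level per kilobase may favour short genes. With no division by length, the order within each PBS group was the same, but more neighbours overlapped. In PBS neutrophils *Cebpb* (115 ± 20.9 CPM) and *Cebpd* (109 ± 2.49) then overlapped while *Cebpg* and *Cebpa* did not, and in PBS macrophages *Cebpb* overlapped with *Cebpa*, and *Cebpa* with *Cebpg*.

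**Figure D1:**
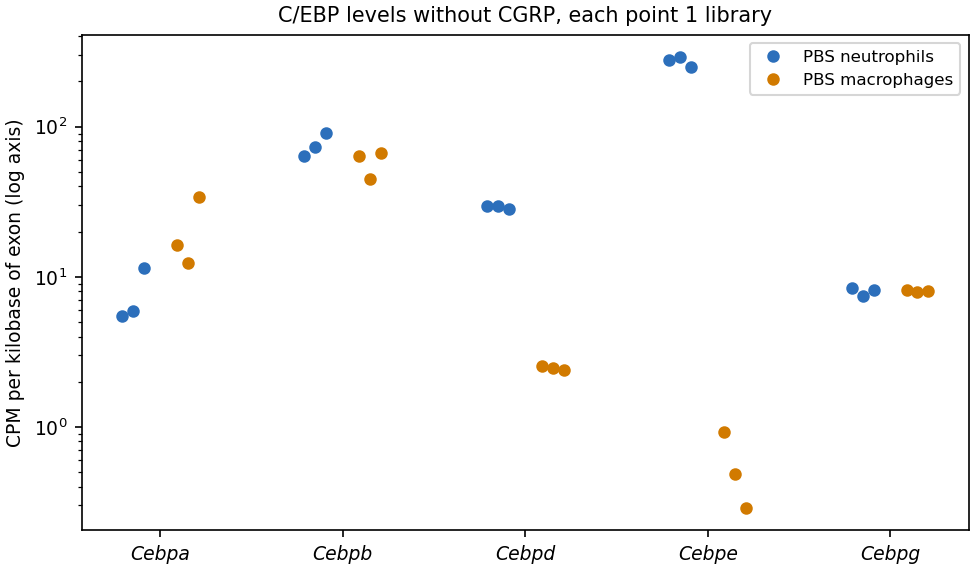
Levels of the 5 C/EBP genes without CGRP, in CPM per kilobase of exon on a log axis, with 1 point per library (3 PBS neutrophil and 3 PBS macrophage libraries). *Cebpe* leads in neutrophils and is last in macrophages, *Cebpd* is also lower in macrophages, *Cebpa* is higher there, and *Cebpg* is level.

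The members themselves were then compared between the PBS groups by limma-voom over all 12 libraries, where 67.9% of the 10694 genes tested had an adjusted p under 0.05 (32.5% higher in macrophages and 35.4% lower). *Cebpe* entered this fit only through the neutrophil libraries, so that the members are given by their own values and not by a count. Cell type and culture cannot be told apart in this comparison, and in bulk RNA neither can fewer cells of a type and less RNA per cell. *Cebpe*, the maturation factor, had 1088, 1172 and 864 counts in the 3 PBS neutrophil libraries and 4, 2 and 1 in the PBS macrophage libraries. Its level in macrophages was 0.215% of that in neutrophils (95% counting interval 0.0862% to 0.443%, summed counts). *Cebpd* stood at 110, 111 and 106 CPM in neutrophils and at 9.47, 9.29 and 8.99 in macrophages, so that the macrophage level was 0.0862 of the neutrophil level (log2 difference −3.54, SE 0.230, adjusted p = 4.36e-12, limma).

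*Cebpa* was higher in macrophages. It measured 14.5, 15.7 and 30.3 CPM in PBS neutrophils and 42.8, 32.7 and 90.3 in PBS macrophages, a 2.61-fold difference (log2 1.38, SE 0.321, adjusted p = 6.00e-04, limma). The groups did not overlap, though replicate 3 was the highest library of both. *Cebpb* was at 96.1, 111 and 137 CPM in neutrophils and 96.4, 67.4 and 101 in macrophages. These libraries overlapped, and the difference of −0.39 (SE 0.173, adjusted p = 0.0526, limma) missed the threshold. It passed under 4 of 8 other settings and in 5 of 12 fits that left out 1 library (adjusted p from 0.0253 to 0.329 over the 12), those without neutrophil PBS replicate 1, macrophage PBS replicate 1 or 3, or macrophage CGRP replicate 1 or 3. *Cebpg* was the most even member, at 45.0 ± 2.86 CPM in neutrophils and 45.2 ± 0.655 in macrophages (SD, n = 3), with a log2 difference between −0.31 and 0.33 (95% interval).

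Target genes were read from lists. Of the 10 listed C/EBPε granule genes 9 passed the count filter of the 12-library fit, 3 of them only through the neutrophil libraries, and of the 6 C/EBPα myeloid genes 4 passed only in that way, so that no count of differences is given for these lists. Among the granule genes, *Camp*, the cathelicidin precursor, was in PBS macrophages at 0.0441% of the neutrophil level, *Ltf*, lactoferrin, at 0.0677%, and *Chil3*, a chitinase-like protein, at 1.31% (summed counts relative to library size). Of the listed granule genes, 4 also served as neutrophil markers, *Camp* and *Ltf* among them. Among the C/EBPα genes, *Csf3r*, the G-CSF receptor, passed the filter in both cell types and was at 320 CPM in PBS neutrophils and 39.3 in PBS macrophages (log2 −3.09, adjusted p = 1.38e-15, limma), each scaled within its cell type. *Cebpa* itself was higher in macrophages. Among 6 tested C/EBPβ genes, *Msr1*, a scavenger receptor, was higher (35.1 against 153 CPM in neutrophils and macrophages, log2 2.09, adjusted p = 4.59e-11) and 5 were lower. Over all genes tested, 32.5% were higher and 35.4% lower.

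CGRP raised *Cebpb* in neutrophils. Levels were 94.7, 108 and 136 CPM (TMM-scaled within the cell type) in the PBS libraries and 167, 152 and 189 in the CGRP libraries. Each CGRP library was above each PBS library. The means were 113 ± 20.9 and 169 ± 18.7 (SD, n = 3), a 1.51-fold rise (log2 0.59, SE 0.117, adjusted p = 5.14e-03, limma-voom). It was the only one of the 5 members to pass, where 2.53% of 9819 genes tested passed in either direction and 1.51% were higher. It was also the only member whose CGRP libraries lay wholly above its PBS libraries, as did those of 8.96% of the genes. Without PBS replicate 1 the rise was 0.47 with an adjusted p of 0.0788, and in a fit over all 12 libraries it was 0.58 with an adjusted p of 0.105.

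In macrophages CGRP also raised *Cebpb*, from 97.8, 68.2 and 102 CPM to 159, 213 and 246. Again each CGRP library was above each PBS library. The means went from 89.5 ± 18.6 to 206 ± 44.1 (SD, n = 3), a 2.29-fold rise (log2 1.20, SE 0.184, adjusted p = 5.05e-04), which passed in all 16 other settings, the 6 that left out 1 library included. *Cebpd*, the member usually induced beside *Cebpb*, rose from 9.61, 9.39 and 9.14 CPM to 13.5, 28.9 and 23.4. The PBS libraries lay close together, and the CGRP libraries were spread over a wider range, all above them. The 2.15-fold rise (log2 1.11, SE 0.298, adjusted p = 0.0323) rested on 25 to 33 counts per PBS library and 42 to 77 per CGRP library. The rise in *Cebpd* kept its direction whichever library was left out (0.85 to 1.47), but it passed in only 1 of those 6 fits, the one without CGRP replicate 1. With these, 2 of the 4 members tested were higher in macrophages, where 3.46% of 9393 genes tested were higher and 7.43% passed in either direction. The CGRP libraries lay wholly above the PBS libraries for the same 2 of the members tested, and for 11.9% of all genes tested.

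**Figure D2:**
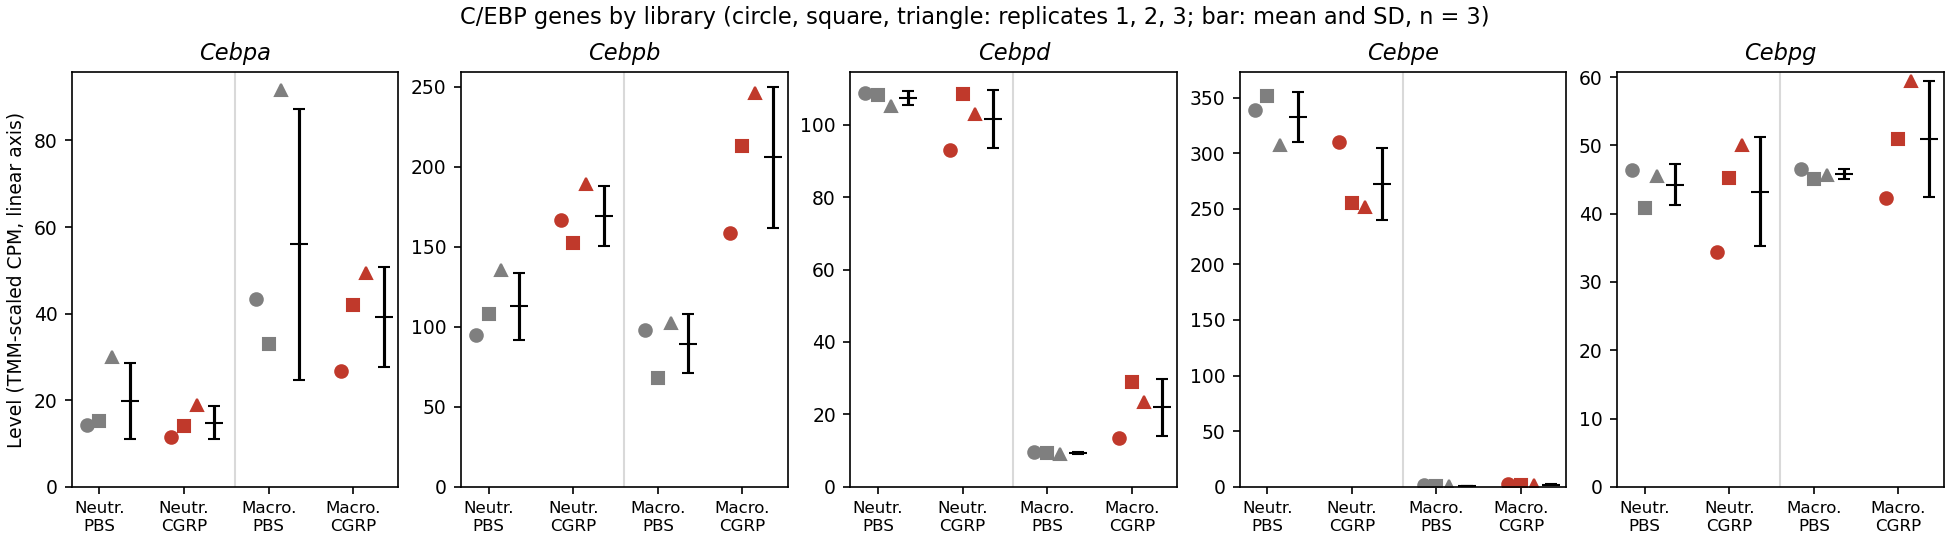
Levels of the 5 members in each of the 12 libraries, in TMM-scaled CPM on linear axes that start at 0, 1 panel per gene. Symbols are replicates and bars are the mean and SD of 3 libraries. *Cebpb* is higher with CGRP in both cell types, *Cebpd* is higher with CGRP in macrophages (13.5 to 28.9 CPM against 9.14 to 9.61), and *Cebpa* is highest in replicate 3 of every group.

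The genes that overlap these 2 members on the other strand were read beside them. *Tmem189*, a plasmalogen desaturase gene, went from 37.2 ± 8.21 to 59.3 ± 4.32 CPM with CGRP in macrophages (log2 0.70, SE 0.178, adjusted p = 0.0244), and was 0.51 higher in neutrophils, with an adjusted p of 0.271. The macrophage call was lost with library totals (adjusted p = 0.0651) and in 4 of the 6 fits without 1 library (adjusted p from 0.0877 to 0.13). It moved in the same direction as *Cebpb*, and its part in the *Cebpb* counts, or theirs in its own, was not tested. It had 347 counts in PBS and 455 in CGRP-treated macrophages, against 841 and 1546 for *Cebpb*. *Spidr*, a DNA repair gene, did not pass in either cell type (−0.22 and −0.37, adjusted p = 0.668 and 0.590), and its values lay in the other direction from those of *Cebpd* in macrophages.

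The other members did not pass the test with CGRP. In neutrophils *Cebpe* had 339, 351 and 308 CPM with PBS and 310, 255 and 252 with CGRP. The highest CGRP library lay just above the lowest PBS library. The log2 difference was −0.29 (95% interval −0.49 to −0.10, adjusted p = 0.121), and it passed without CGRP replicate 1 (−0.39, adjusted p = 0.0192) and with no filter on low counts (−0.30, adjusted p = 0.0481). The 9 neutrophil markers summed to 193500 ± 37280 CPM with PBS and 171700 ± 23300 with CGRP in neutrophils. The most abundant, *S100a8*, went from 66270 ± 16510 to 55540 ± 10400 CPM, scaled within the cell type. *Cxcr2* (563 to 641 CPM) and *Retnlg* (14900 to 15700) were higher with CGRP, and the others were lower. The part of these markers in the lower *Cebpe* was not tested. In macrophages *Cebpe* was below the count filter and had no test. Its counts were 4, 2 and 1 with PBS and 7, 5 and 3 with CGRP, a summed ratio of 2.62 whose counting interval ran from 1.00 to 7.59. The 9 neutrophil markers went in the same direction there, from 304 ± 51.7 to 382 ± 14.2 CPM, and their part in the *Cebpe* counts was not tested.

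*Cebpa* ran from 14.3, 15.3 and 29.9 CPM to 11.5, 14.1 and 18.9 in neutrophils and from 43.4, 33.0 and 91.7 to 26.6, 42.0 and 49.3 in macrophages. In both cell types the groups overlapped. The log2 differences were −0.37 (95% interval −0.91 to 0.17, adjusted p = 0.618) and −0.43 (−1.08 to 0.22, adjusted p = 0.491), and without PBS replicate 3 they were −0.06 and −0.03. *Cebpg* gave −0.06 (−0.37 to 0.24) in neutrophils and 0.12 (−0.23 to 0.47) in macrophages. *Cebpd* in neutrophils stayed between 93.0 and 109 CPM in all 6 libraries (−0.08, −0.29 to 0.12). These 3 intervals reached no further than 0.47 on the log2 scale in either direction.

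**Figure D3:**
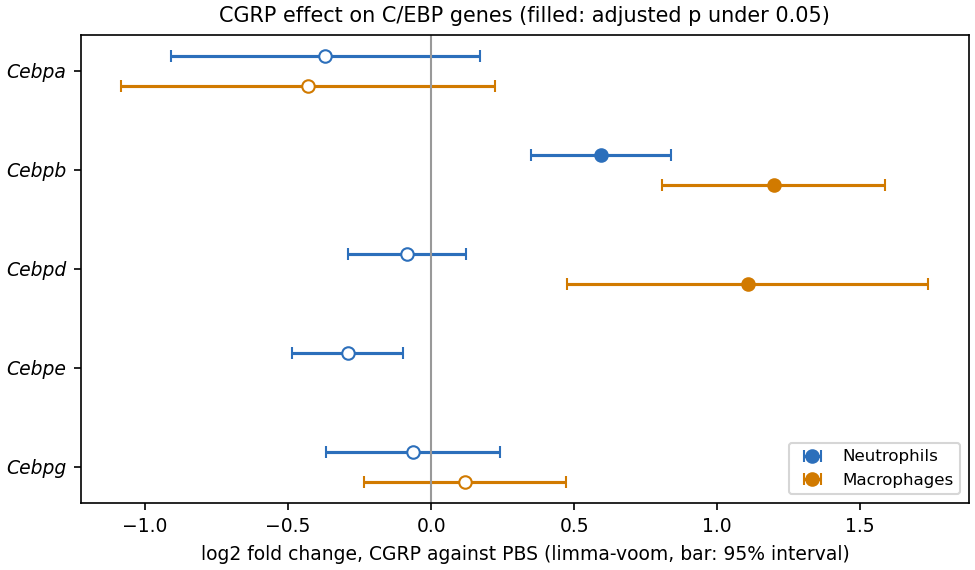
Log2 fold change of each member, CGRP against PBS, in neutrophils and in macrophages, with 95% intervals from limma-voom (n = 3 against 3). Filled points had an adjusted p under 0.05: *Cebpb* in neutrophils (0.59), and *Cebpb* (1.20) and *Cebpd* (1.11) in macrophages. *Cebpe* has no point in macrophages, where it was not tested.

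An interaction term over the 12 libraries asked whether CGRP acted differently in the 2 cell types, and 2.36% of 10694 genes passed in it, with 1.21% higher in macrophages. *Cebpd* was the 1 member that did. Its effect was 1.19 higher on the log2 scale in macrophages than in neutrophils (SE 0.30, 95% interval 0.57 to 1.81, adjusted p = 0.0315). With 1 library left out, the estimate stayed between 0.93 and 1.57, and 2 of 12 fits passed. For *Cebpb* the difference was 0.61 (0.12 to 1.10, adjusted p = 0.229), and it passed only without macrophage CGRP replicate 1 (0.80, adjusted p = 0.0408). *Cebpa* (−0.05, adjusted p = 0.981) and *Cebpg* (0.19, adjusted p = 0.798) showed none that could be told from the spread. The fitted difference for *Cebpe* (1.64, adjusted p = 0.223) rests on macrophage libraries of 1 to 7 counts.

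With CGRP the order by CPM per kilobase of exon was the same in neutrophils, with *Cebpe* at 221 and *Cebpb* at 113. In CGRP-treated macrophages *Cebpb* led with 135, followed by *Cebpa* (14.7), *Cebpg* (8.92), *Cebpd* (5.76) and *Cebpe* (1.49). The libraries of *Cebpa* and *Cebpg* overlapped, and so did those of *Cebpg* and *Cebpd*. With no division by length, *Cebpa* and *Cebpg* changed places in this group.

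Ratios between 2 members within a library do not depend on how libraries are scaled. They were taken as log2 of counts plus 0.5 and tested by an exact permutation test, two-sided, whose smallest p with 3 against 3 libraries is 0.1. The ratio of *Cebpb* to *Cebpa* was 2.71, 2.81 and 2.18 in PBS neutrophils and 3.85, 3.42 and 3.31 with CGRP, a 1.94-fold rise (exact p = 0.1). In macrophages it was 1.17, 1.04 and 0.16 with PBS and 2.57, 2.34 and 2.31 with CGRP, a 3.06-fold rise (exact p = 0.1). In neither cell type did the groups overlap. The ratio of *Cebpd* to *Cebpb* was 0.68 lower with CGRP in neutrophils (exact p = 0.1), where *Cebpb* rose and *Cebpd* did not pass, and it was −3.21 ± 0.327 and −3.27 ± 0.348 (SD, n = 3) in PBS and CGRP-treated macrophages, where both rose (exact p = 0.7). The ratio of *Cebpe* to *Cebpa* in neutrophils was 4.14 ± 0.678 with PBS and 4.21 ± 0.508 with CGRP (exact p = 0.9). These were 5 ratios in all, and with a smallest p of 0.1 none could pass.

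**Figure D4:**
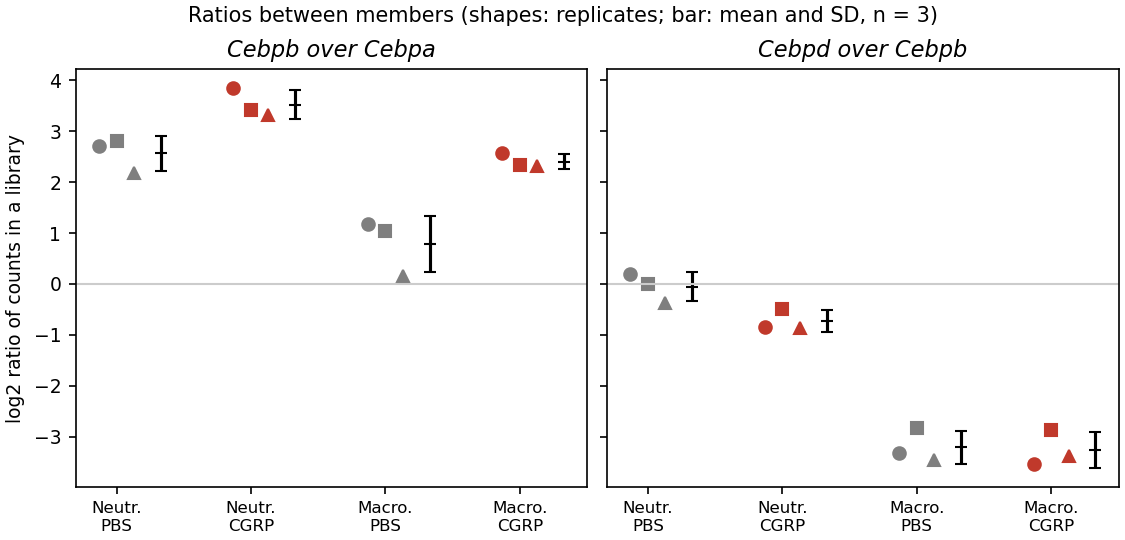
Log2 ratio of the counts of 2 members in each library, by group, with the mean and SD of 3 libraries. The ratio of *Cebpb* to *Cebpa* is higher with CGRP in both cell types with no overlap, whereas that of *Cebpd* to *Cebpb* is lower with CGRP in neutrophils and overlaps in macrophages.

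Partners and relatives that share the basic leucine zipper gave no call in neutrophils, where none of 6 tested passed in limma-voom, edgeR or DESeq2, and 0 had an unadjusted p under 0.05. With 2.53% of all genes passing in neutrophils, a count of 0 of 6 is near the background. In macrophages 1 of 8 rose and 1 fell, where 7.43% of all genes tested passed in either direction. *Nfil3*, a repressor that binds related sites, had 18.9, 24.2 and 19.7 CPM with PBS and 84.4, 82.9 and 91.0 with CGRP (log2 2.03, SE 0.174, adjusted p = 1.76e-06). In neutrophils it stayed between 17.4 and 25.3 CPM in all 6 libraries, and the difference between the cell types was 2.0 (adjusted p = 2.67e-05). *Batf3*, a partner of IRF8 in dendritic cell development, fell from 95, 95 and 65 counts to 16, 8 and 4 (log2 −2.92, SE 0.358, adjusted p = 5.82e-05). It passed the count filter through the PBS libraries, where it was high. Its test and its place in the count above are therefore given as description only. *Batf3* had at most 4 counts in any neutrophil library.

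Among 12 listed kinases and degradation factors that act on C/EBP proteins, 1 of 10 tested rose in neutrophils (2.53% of all genes tested passed there) and none of 10 passed in macrophages in limma-voom, edgeR or DESeq2, where 0 had an unadjusted p under 0.05. With 7.43% of all genes passing in macrophages, 0 of 10 is near the background. The gene that rose was *Trib1*, the pseudokinase that brings C/EBPα to the COP1 ubiquitin ligase. It went from 25.9, 26.4 and 22.4 CPM to 52.2, 45.8 and 57.9 in neutrophils (log2 1.03, SE 0.15, adjusted p = 2.49e-04). In macrophages its means were 27.8 ± 6.81 and 26.0 ± 4.34 CPM (adjusted p = 0.907), and the effect there was 1.09 lower than in neutrophils by the interaction (adjusted p = 0.0275). With 1 library left out, that difference passed in 4 of 12 fits.

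Of 7 myeloid factors that act with C/EBP proteins, 2 fell in neutrophils and none of 4 tested passed in macrophages, by limma-voom, edgeR or DESeq2 (1 had an unadjusted p under 0.05). Over all genes tested, 2.53% passed in neutrophils and 7.43% in macrophages, and with 4 genes tested a count of 0 is near that share. *Irf8*, which favours monocytes over granulocytes, fell from 131 ± 18.5 to 73.5 ± 4.77 CPM (log2 −0.83, SE 0.116, adjusted p = 1.83e-04). *Klf4*, a monocyte factor, fell from 49.3 ± 2.43 to 28.8 ± 4.63 (log2 −0.76, SE 0.146, adjusted p = 4.02e-03). In macrophages their differences of −0.27 and −0.31 did not pass, and neither gene's difference between the cell types did (adjusted p = 0.110 and 0.691). Monocyte and macrophage markers summed to 1057 ± 10.5 CPM in PBS neutrophils and 928 ± 79.3 in CGRP-treated neutrophils. *Ccr2*, the monocyte chemokine receptor, fell there from 312 to 222 CPM, scaled within the cell type (log2 −0.49, adjusted p = 1.34e-03, limma-voom). The other markers of this list did not pass there and went in both directions, as with *Adgre1* (40.5 to 28.6 CPM) and *Cd68* (254 to 273). The part of these markers in the lower *Irf8* and *Klf4* was not tested. *Spi1*, the gene of the partner PU.1, was named after its values were seen. It was at 352 ± 0.557 and 333 ± 14.4 CPM in neutrophils and 363 ± 7.93 and 343 ± 21.5 in macrophages, in the order PBS and CGRP.

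The genes that C/EBP proteins are known to drive were counted in the same way. None of the 9 tested C/EBPε granule genes passed in neutrophils (median log2 difference −0.18, against 0.00 over all genes tested), and none of the 6 C/EBPα genes did (−0.06). Neither edgeR nor DESeq2 called any of them, and 3 granule genes and 2 C/EBPα genes had an unadjusted p under 0.05 in limma-voom. In macrophages 0 of 6 granule genes (median 0.39) and 0 of 2 C/EBPα genes passed by any of the 3 tools, and 2 and 0 had an unadjusted p under 0.05. The counts of genes that passed are near the shares of all genes that passed, 2.53% in neutrophils and 7.43% in macrophages. No share of all genes with an unadjusted p under 0.05 is given here, so the unadjusted counts have no background beside them. The neutrophil markers, 4 of which are granule genes of this list, had a median of −0.17 in neutrophils and 0.38 in macrophages. They summed to 193500 ± 37280 CPM with PBS and 171700 ± 23300 with CGRP in neutrophils, where *Cxcr2* and *Retnlg* were higher and the others lower. In macrophages they summed to 304 ± 51.7 and 382 ± 14.2 in the same order. Their part in the granule gene medians was not tested. Of 6 tested C/EBPβ genes, 1 rose in neutrophils, and 1 rose and 1 fell in macrophages (medians 0.10 and −0.07). The 1 that fell, *Tnf*, passed the count filter there only through the PBS libraries. Over all genes tested, 2.53% passed in neutrophils and 7.43% in macrophages, in either direction. *Il1b*, the interleukin-1β gene, rose in both. It went from 83.8, 92.9 and 96.9 CPM to 189, 217 and 164 in neutrophils (log2 1.06, SE 0.109, adjusted p = 3.22e-06) and from 3.49, 4.24 and 5.48 to 63.5, 57.7 and 50.8 in macrophages (log2 3.71, SE 0.287, adjusted p = 6.41e-07), with a difference between the cell types of 2.66 (adjusted p = 1.26e-05).

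*Tnf*, the gene of the cytokine TNF, was at low counts in macrophages. It had 24, 13 and 10 counts with PBS and 3, 3 and 1 with CGRP. The summed ratio was 0.182 with a counting interval of 0.0694 to 0.405. It passed the count filter only through the PBS libraries, so its limma-voom test (adjusted p = 0.0149) is given as description only. With 1 library left out, *Tnf* passed in 2 of 6 fits.

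**Figure D5:**
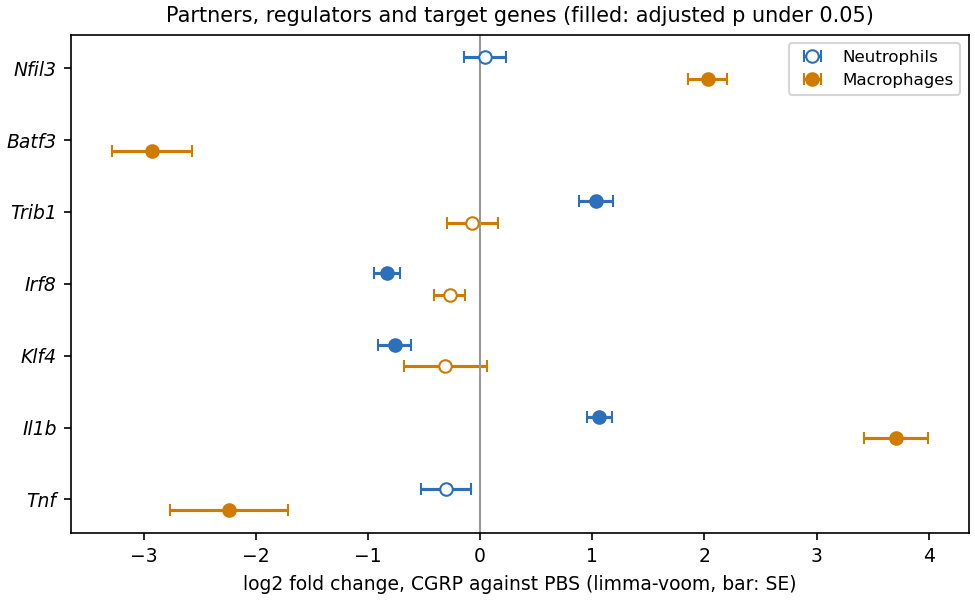
Log2 fold change with CGRP, with SE from limma-voom (n = 3 against 3), of the partners *Nfil3* and *Batf3*, the regulator *Trib1*, the myeloid factors *Irf8* and *Klf4* and the target genes *Il1b* and *Tnf*. Filled points had an adjusted p under 0.05. *Il1b* is filled in both cell types, *Trib1*, *Irf8* and *Klf4* in neutrophils, and *Nfil3*, *Batf3* and *Tnf* in macrophages. *Batf3* and *Tnf* passed the macrophage count filter through the PBS libraries, where they were high.

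The genes whose pattern was most like each member were taken over the 12 libraries after the mean of each cell type was subtracted, among 10694 genes. The measure is Pearson's r of log2 CPM, given as a description, since the libraries share their groups and their depths. For *Cebpb* they were *Tcf4* (0.976), *Etv6* (0.962) and *Emilin2* (0.961), and for *Cebpd* they were *Eif2ak1* (0.972), *Ssh2* (0.954) and *Dapp1* (0.934). *Tcf4* had a CGRP difference of 0.33 in neutrophils (adjusted p = 0.275) and 0.73 in macrophages (adjusted p = 4.74e-03). *Cebpa* was most like *Gnb1* (0.932), *Cebpe* like *Dhrs7* (0.952) and *Cebpg* like *Pitrm1* (0.946). The value for *Cebpe* includes 6 macrophage libraries with 1 to 7 of its counts each, where the counting error on the log scale is large. Between members, the closest pair was *Cebpb* and *Cebpd* (0.763), and *Cebpa* and *Cebpb* were at −0.02.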

How the data were processed

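The deposited values are raw counts per gene, in 1 table for each cell type. According to the methods of the study, the authors ran nfCore/RNAseq (v3.2) with collapsing of PCR copies by molecular barcode, aligned reads to GRCm38 with STAR and counted them with featureCounts. The libraries were primed at the poly-A tail. The annotation release, the strand setting and any filter on low counts are not given in the sources used here.

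Genes were kept with edgeR's filterByExpr (edgeR 4.0.16), scaled by TMM and tested with limma-voom (limma 3.58.1, R 4.3.3, two-sided, Benjamini–Hochberg adjustment over all genes tested, threshold 0.05), as the study names this test. CGRP was compared with PBS in the 6 libraries of each cell type. The difference between cell types and the PBS groups were tested over all 12 libraries. Ratios between members were tested by exact permutation. Counting intervals (95%, exact binomial) and the floor of 3 counts, which equals 0.826 to 1.50 CPM, cover counting error only.

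The 5 members and the 13 gene lists (107 entries) were chosen with earlier results of these data known, and some genes are not reported here. Besides the members, genes are named if they passed in the comparison described (at most 4 per list, by adjusted p), overlap a member, or are among the 3 most alike in pattern. Markers at 0 in PBS macrophages, *Pf4*, *Ccr2* and *Cx3cr1* between the PBS groups, and *Spi1* are named outside this rule. So are the markers *Adgre1*, *Cd68*, *S100a8*, *Cxcr2* and *Retnlg* with CGRP in neutrophils. Positions and lengths come from GENCODE M21, where 52489 of 52636 identifiers were found, and promoters from RefSeq. No 2 libraries were identical. On simulated counts with 200 changed genes, a log2 fold change of 1 was recovered for 88.0% of genes in neutrophils, 86.6% in macrophages and 61.0% in the interaction. The simulation gave every gene the same spread, which was set and not estimated from these libraries. It changed only genes above a minimum mean count. The shares may therefore be too high for genes with few counts or a wide spread, such as *Cebpa*. Other settings tried were DESeq2 (1.42.0), edgeR's quasi-likelihood test, DESeq2 size factors, library totals, other count filters, quality weights, the replicate number as a block, a single fit, thinned counts, other lengths and pseudocounts, and leaving out each library.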

Additional observations from a re-analysis of the deposited data

Results flagged for a closer look

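For 5 of the genes named above, the effect of CGRP differed between macrophages and neutrophils in the interaction test, and each difference is given on the log2 scale as macrophages minus neutrophils. It was 1.19 for *Cebpd*, 2.66 for *Il1b* and 2.0 for *Nfil3*, whose effects were higher in macrophages. It was −1.09 for *Trib1* and −0.96 for *Cx3cr1*, a chemokine receptor from the monocyte marker list that fell by 1.36 in macrophages (adjusted p = 1.43e-04, limma-voom). For *Il1b* and *Nfil3* the difference passed in all 12 leave-one-out fits, for *Cx3cr1* in 11, for *Trib1* in 4 and for *Cebpd* in 2. Groups of 3 libraries were not tested for single libraries far from the others.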

How the results depend on the processing

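Depth limits the family most for *Cebpe* in macrophages, at 1 to 7 counts per library, and for *Cebpd* there, at 25 to 77. Of 1573 differences of single genes recomputed under other settings, 1510 kept their direction and their side of the threshold. That count includes the many other genes named between the PBS groups for their small adjusted p. Those kept both in every setting that gave a value, so the count does not describe the family. With 1 library left out, *Cebpd* passed in 1 of 6 fits in macrophages and in 2 of 12 in the interaction. *Cebpb* in macrophages passed in all 16 settings, and *Cebpa* and *Cebpd* passed in all 20 settings between the PBS groups. Why the other values moved was not tested, except that leaving out a library leaves fewer samples.

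In neutrophils, the single fit over 12 libraries called 137 genes and gave *Cebpb* 0.58 (adjusted p = 0.105), and *Cebpe* passed with no filter on low counts (−0.30, adjusted p = 0.0481). In macrophages, quality weights called 1406 genes and the single fit 1050, and *Cebpd* missed the threshold with library totals (1.05, adjusted p = 0.0577). In the interaction, quality weights called 520 genes and turned *Cebpa* to 0.12, and *Cebpd* missed the threshold with library totals (1.08, adjusted p = 0.0951) and with no filter (1.18, adjusted p = 0.0745). Between the PBS groups, *Cebpb* passed with DESeq2 (−0.40, adjusted p = 0.0492), with its size factors (−0.40, adjusted p = 0.0419) and with at least 10 counts in every library (−0.43, adjusted p = 0.0370), while *Cebpg* turned to −0.0124, −0.00946 and −0.0314. That filter gives no value for *Cebpe* in the fits over 12 libraries. With library totals, 150 genes were higher and 64 lower in neutrophils (148 and 100 with TMM), 245 and 405 in macrophages (325 and 373 with TMM), and 88 and 154 in the interaction (129 and 123 with TMM). With no filter on low counts, 155 were higher and 152 lower in neutrophils.

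With 1 library left out, calls numbered 138 to 234 in neutrophils, 347 to 765 in macrophages and 149 to 328 in the interaction. Neutrophil log2 changes ran from 0.47 to 0.73 for *Cebpb*, −0.39 to −0.24 for *Cebpe* and −0.16 to 0.10 for *Cebpg*. *Cebpd* ran from 0.85 to 1.47 in macrophages. In the interaction, *Cebpa* ran from −0.39 to 0.34, *Cebpb* from 0.42 to 0.80 and *Cebpd* from 0.93 to 1.57. Between the PBS groups, *Cebpb* ran from −0.51 to −0.20 and *Cebpg* from −0.0485 to 0.0420. The change in the log2 ratio of *Cebpd* to *Cebpb* in macrophages ran from −0.25 to 0.13 and that of *Cebpe* to *Cebpa* in neutrophils from −0.32 to 0.31.

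The groups share replicate numbers, but the deviations of same-numbered PBS and CGRP libraries correlated at 0.0421, −0.013 and 0.137 in neutrophils and 0.0594, −0.179 and 0.273 in macrophages, so the samples were not treated as pairs. No source used here says whether a number marks shared mice or a shared day. With the replicate block, calls numbered 266, 915, 295 and 7369, and *Cebpb* passed between the PBS groups (−0.38, adjusted p = 0.0246). It changed no other call of a member.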
